A study of Homo sapiens with 8 samples.

Results

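The genes described here are 43 components of the pathway by which cells sense amino acids and control the kinase complex mTORC1. They were taken as a list of symbols covering 14 roles, from the Sestrin, CASTOR and SAMTOR sensors through the GATOR, KICSTOR, Rag, Ragulator, folliculin and TSC proteins to mTORC1, its substrates and DDIT4. They stand among 12235 genes or unmatched transcripts listed in the series, and 42 of the 43 were listed in 1 or more libraries. NPRL3, a GATOR1 subunit, matched no listed transcript and has no value here.

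Ribosome profiling was performed on HEK293T, an established cell line of human embryonic kidney immortalized by SV40 large T antigen. Ribosome profiling sequences the mRNA fragments that ribosomes shield from nuclease (footprints), so a footprint density reports ribosome occupancy of a coding sequence, in which mRNA level and translation cannot be told apart. Cells were cultured in sufficient medium (Suff) or, over night per the labels, in medium without arginine (Arg-), leucine (Leu-) or methionine (Met-). All media were built on the same custom DMEM with dialyzed serum, cysteine and histidine, and the Arg-, Leu- and Met- media were each made by not adding back the named amino acid. The 4 media were sampled in cells pre-treated with cycloheximide (CHX), a drug that arrests elongating ribosomes, and again in cells that did not receive it. Each of these 8 conditions was represented by 1 library, with no replicate. Within a series no comparison has a replicate check, and every interval is a 95% interval that covers counting error only. A fit over both series together is given near the end.

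In this pathway, amino acids act on the Rag GTPases, which recruit mTORC1 to the lysosome surface where RHEB activates its kinase. SESN1 and SESN2 bind leucine, CASTOR1 binds arginine and SAMTOR binds the methionine product S-adenosylmethionine, and each lets go of its GATOR partner when its ligand is present. Active mTORC1 phosphorylates the S6 kinases and the eIF4E-binding proteins (4E-BPs), and thereby promotes translation, whereas TSC and the stress protein DDIT4 hold it back.

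Values are RPKM (read density corrected for coding length and for sequencing depth), so levels may be set side by side between genes within a library. The whole reads behind the RPKM could be recovered. Libraries held 538222 (Met-) to 6434043 (Leu-) reads on coding sequences with CHX and 1302523 (Met-) to 3139745 (Suff) without it. With CHX no transcript under 64 reads was listed, and the libraries of Suff, Arg-, Leu- and Met- medium listed 20, 34, 39 and 8 of the members. Without CHX the lowest listed count was 5 reads and the same media listed 42, 41, 41 and 42 members. With CHX the number of members listed was in the order of depth, and a member that is not listed had a level under that cutoff and not a level of 0. Of 6 genes usual for this cell line, 5 or 6 were listed in each library without CHX and 2 or 3 with CHX. Defining genes of leukocytes, erythroid cells, hepatocytes, fibroblasts and endothelium (5 genes) were listed in none of the 8 libraries. CHX, read cutoff, removal of duplicate reads and depth all differed between the 2 series and cannot be told apart, and 13 of the 39 members listed in both series were represented there by different transcripts (NPRL2, SEH1L, SEC13, WDR24, KICS2, LAMTOR1, LAMTOR2, LAMTOR5, TBC1D7, MLST8, AKT1S1, RPS6KB1 and RPS6KB2). Ratios were therefore taken within a series only.

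SESN2 and DDIT4 were higher in each of the 3 deficient media than in sufficient medium, in both series. Subunits of the same complex often lay on different sides of their sufficient level, some of them within counting error. Whether this was more usual than for other genes was not tested. Without CHX, ITFG2 was also at least 2-fold higher in each deficient medium, EIF4EBP1 in Arg- and Leu-, and TSC2 in Arg- and Met-. EIF4EBP2, SEH1L, SEC13, KPTN, LAMTOR1, LAMTOR4, LAMTOR5 and AKT1S1 lay below their sufficient level in all 3. Among these, only EIF4EBP2 and LAMTOR4 had every counting interval clear of 0. Members below in all 3 were 8 of 41, beside 17.4% of all genes. Those at least 2-fold higher in all 3 (SESN2, DDIT4 and ITFG2) were 3 of 41, beside 3.16%. Each log2 ratio below is log2 of RPKM + 1 in deficient medium over RPKM + 1 in sufficient medium, which understates differences of low genes, and called means at least 2-fold on that scale. The 3 ratios of a series share its Suff library, so a chance value there enters all 3.

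Without CHX, 5 of 41 members with a value in both libraries were at least 2-fold higher in Arg- and 2 were lower, beside 9.22% and 4.78% of all genes. In Leu- 5 of 41 were higher and 0 lower, beside 7.98% and 1.76%. In Met- 10 of 42 were higher and 0 lower, beside 21.4% and 4.36%. The members' shares (12.2%, 12.2% and 23.8% higher) thus lay near those of all genes. With CHX, 2 of 19 were higher and 6 lower in Arg- (all genes 16.2% and 19.2%), 3 of 20 were higher and 3 lower in Leu- (11.6% and 7.05%), and 3 of 7 were higher and 0 lower in Met- (46.7% and 9.78%). Median log2 ratios of the members were 0.12 in Arg-, 0.21 in Leu- and 0.48 in Met- without CHX, beside 0.07, 0.20 and 0.39 over all genes. With CHX they were -0.39, -0.20 and 0.44, beside -0.21, 0.01 and 0.89. The median of the genes listed in both libraries was thus off 0 in most pairs, most of all in Met-. Centring on that median left 6 members higher and 5 lower in Met- without CHX, beside 9.53% and 10.4% of all genes. For Met- with CHX the 0.89 and the 46.7% stand on 1892 genes, those that reached the read cutoff in that shallow library. With unlisted genes counted as 0, which reads depth as a difference, that median was -4.38. It therefore depends on which genes were listed, and so do the values for Met- with CHX centred on 0.89 below.

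**Figure D1:**
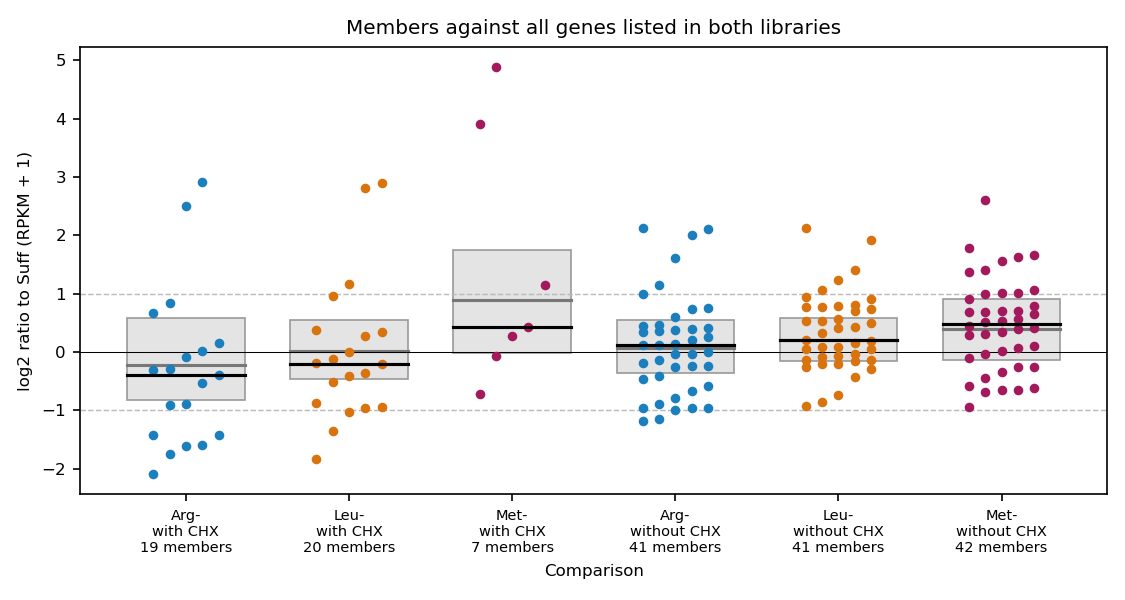
Log2 ratio to sufficient medium (vertical axis) of every member listed in both libraries, for the 6 comparisons on the horizontal axis. Each point is 1 member, the black line is the members' median, the grey box and line are the quartiles and median of all genes, and dashed lines mark 2-fold. The members' medians lay inside the box of all genes in each comparison, and the highest points are SESN2 and DDIT4.

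Over all genes, longer coding sequences had higher ratios in each of the 6 comparisons (Spearman rho 0.27 to 0.56 over 1776 to 10421 genes). Over the members rho was 0.24 to 0.54, with 7 to 42 members. All points of a comparison share the same pair of libraries, and the part of coding length in single ratios was not tested. The Ragulator subunits and both 4E-BPs have short coding sequences (354 to 519 bases), and MTOR, TSC2 and RPTOR long ones (7647, 5421 and 4005 bases).

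Among the sensors, SESN2 stood apart from its relatives. SESN2, a leucine-binding Sestrin that is also a stress-response gene, lies at chr1:28259518-28282491 on the plus strand (GRCh38, as are all gene positions here). Without CHX its RPKM was 53.4 in Suff, 237 in Arg-, 236 in Leu- and 187 in Met-. The series with CHX gave 20.1, 158, 157 and 316 in the same order. Every deficient library exceeded the sufficient library of its series. The log2 ratios were 2.13 (1.91 to 2.35), 2.12 (1.90 to 2.35) and 1.79 (1.55 to 2.03) without CHX. They were 2.92 (2.58 to 3.28), 2.90 (2.57 to 3.26) and 3.91 (3.53 to 4.31) with CHX. Arg- and Leu- did not differ beyond counting error (log2 ratio of Leu- to Arg- without CHX -0.01, -0.18 to 0.17). Met- was below Arg- without CHX (-0.34, -0.53 to -0.14) and had the highest level with CHX. Centred on the median of all genes, the ratios with CHX were 3.13 in Arg-, 2.89 in Leu- and 3.02 in Met-. Met- was then no longer the highest, though its centring rests on the genes listed in the shallow Met- library.

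DDIT4 (REDD1), which restrains mTORC1 through TSC under stress, lies at chr10:72273919-72276036 on the plus strand. Its RPKM without CHX was 184 in Suff, 798 in Arg-, 699 in Leu- and 1124 in Met-. With CHX the values were 87.5, 499, 622 and 2605. Met- medium gave the highest level in both series. The log2 ratios were 2.11 (1.94 to 2.29), 1.92 (1.74 to 2.10) and 2.61 (2.44 to 2.78) without CHX and 2.50 (2.26 to 2.74), 2.81 (2.58 to 3.06) and 4.88 (4.63 to 5.13) with CHX. Without CHX Met- exceeded Leu- by a log2 ratio of 0.68 (0.55 to 0.82) and Arg- by 0.49 (0.36 to 0.62). Centred on the median of all genes, the DDIT4 ratios without CHX lay closer together, at 2.04 in Arg-, 1.72 in Leu- and 2.22 in Met-. After centring on the median of all genes SESN2 and DDIT4 were still at least 2-fold higher in all 6 comparisons, by 1.40 at the least for SESN2 (Met- without CHX) and by 1.72 for DDIT4 (Leu- without CHX).

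The other Sestrins did not follow SESN2. SESN1 was at 20.002, 19.5, 35.1 and 16.7 RPKM in Suff, Arg-, Leu- and Met- without CHX, so that Leu- was the highest. The ratios of SESN1 were -0.04 (-0.51 to 0.44), 0.78 (0.37 to 1.20) and -0.25 (-0.80 to 0.29). It was listed with CHX at 22.9 in Arg- and 39.4 in Leu- and not listed in Suff, where the cutoff of 64 reads equals 15.1, so its level was at least 1.52-fold higher in Arg- and 2.61-fold in Leu-. In Met- with CHX it was not listed either, but the cutoff there was 71.9. SESN3 was at 21.8, 9.24, 18.1 and 23.4 RPKM without CHX, and Arg- was the lowest. Those of SESN3 were -1.15 (-1.80 to -0.53), -0.25 (-0.79 to 0.26) and 0.10 (-0.42 to 0.60). It was listed with CHX at 8.65 in Arg- and 11.7 in Leu-, both under the Suff cutoff of 16.9, and it was not listed in Met-. The 3 Sestrins thus lay within 2.67-fold of each other in Suff without CHX and within 25.7-fold in Arg-.

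**Figure D2:**
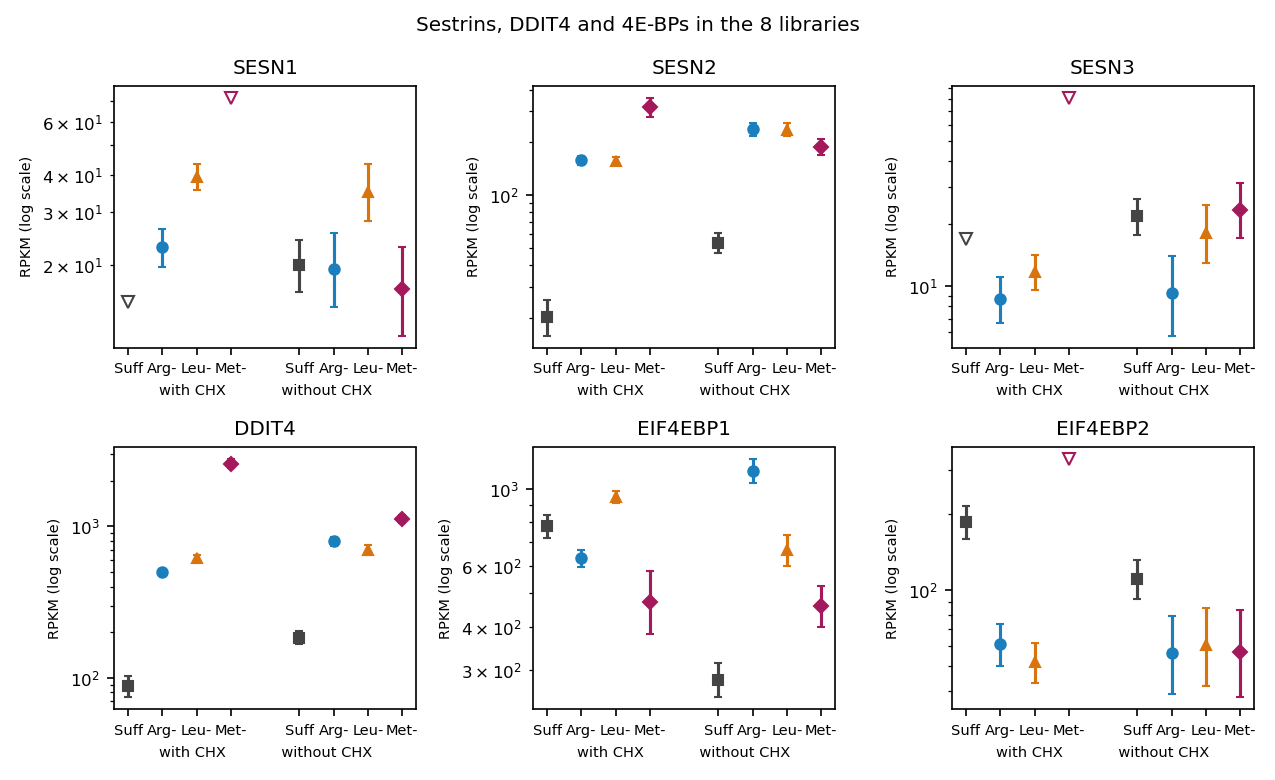
RPKM (log axis) of the 3 Sestrins, DDIT4 and the 2 4E-BPs in the 8 libraries, by medium and by cycloheximide (CHX) on the horizontal axis. Filled symbols carry 95% Poisson intervals of the reads and open triangles mark the cutoff where a member was not listed. SESN2 and DDIT4 are higher in every deficient library than in the sufficient library of their series, and EIF4EBP2 is lower in every deficient library that lists it.

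Promoters are shown for SESN2 and DDIT4, for their ratios above, and for TSC2 and RRAGC, for their motif matches. Sequences are those of RefSeq on GRCh38.p14, 5′ to 3′, and 34 of the 43 members had an entry. RRAGD, EIF4EBP1, BMT2, MLST8, DEPTOR, WDR24, CASTOR2, AKT1S1 and RRAGA had none. Each window of 250 bases before to 50 after the start was searched on both strands for TGATGNAA, a form of the C/EBP-ATF response element through which ATF4 acts, for TCACGTGA, the core of the CLEAR element of TFEB, and for CACGTG, the E-box that TCACGTGA contains. Capitals mark matches, and positions count from -1 at the base before the start. The first 3 sequences are the 250 bases before the start of SESN2 (chr1:28259268-28259517, plus strand), DDIT4 (chr10:72273674-72273923, plus strand) and TSC2 (chr16:2047735-2047984, plus strand), and the last is a stretch of 40 bases of RRAGC (chr1:38859863-38859902, minus strand).
SESN2: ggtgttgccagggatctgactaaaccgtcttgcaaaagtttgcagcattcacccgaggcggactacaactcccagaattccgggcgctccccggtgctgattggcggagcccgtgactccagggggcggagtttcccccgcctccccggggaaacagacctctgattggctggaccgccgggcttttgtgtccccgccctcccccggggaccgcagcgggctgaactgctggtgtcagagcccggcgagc
DDIT4: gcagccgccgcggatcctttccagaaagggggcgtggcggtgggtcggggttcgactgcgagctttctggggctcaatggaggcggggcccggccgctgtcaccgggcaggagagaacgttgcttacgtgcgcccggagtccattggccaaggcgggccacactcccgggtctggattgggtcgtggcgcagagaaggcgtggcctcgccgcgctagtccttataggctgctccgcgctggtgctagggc
TSC2: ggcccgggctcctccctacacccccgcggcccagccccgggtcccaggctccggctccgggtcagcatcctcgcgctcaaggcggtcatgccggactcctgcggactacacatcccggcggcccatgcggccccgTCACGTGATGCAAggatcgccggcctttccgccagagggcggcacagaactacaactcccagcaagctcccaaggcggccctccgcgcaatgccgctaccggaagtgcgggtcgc
RRAGC: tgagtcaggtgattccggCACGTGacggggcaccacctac

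TGATGNAA was found in 1 of the 34 member promoters, TSC2 (at -110), and in 3.67% of all 27305 promoters. TCACGTGA was found in 2, TSC2 (at -115, sharing bases with the TGATGNAA match) and RRAGB (at -26), beside 1.04% of all promoters. CACGTG was found in 8 (23.5%), beside 7.43% of all. The 8 were RRAGC, FNIP1, LAMTOR4, LAMTOR1, KICS2, NPRL3, TSC2 and RRAGB. None of the 3 motifs matched in the SESN2 or DDIT4 window, which says only that these letters are not in that window.

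CASTOR1, the arginine sensor, was at the edge of detection. It was listed with 5 reads in each of 2 libraries, at 1.61 RPKM (0.522 to 3.75) in Suff and 3.88 RPKM (1.26 to 9.05) in Met-, both without CHX. Its log2 ratio in Met- was 0.90 (-0.46 to 2.77), which does not separate the media. It was not listed in Arg- or Leu-, where 5 reads equal 3.14 and 3.37 RPKM, nor in any library with CHX. Of the 30-base windows of its coding sequence, 88.3% also occur in another annotated gene, so uniquely mapped reads may miss much of it. CASTOR2, a close relative that does not share the arginine response, was at 14.5, 9.41, 16.9 and 24.0 RPKM in Suff, Arg-, Leu- and Met- without CHX. Ratios of CASTOR2 were -0.57 (-1.40 to 0.23), 0.21 (-0.50 to 0.91) and 0.69 (0.02 to 1.36), and 29.2% of its coding windows occur in other annotated genes. CHX libraries listed it at 12.9 in Arg- and 13.2 in Leu-, below the Suff cutoff of 25.3. BMT2 (SAMTOR), which senses S-adenosylmethionine, was at 8.63, 8.67, 7.68 and 13.2 RPKM without CHX, with Met- the highest. Ratios of BMT2 were 0.01 (-0.80 to 0.82), -0.15 (-1.01 to 0.71) and 0.56 (-0.22 to 1.35), all within counting error of 0. CHX libraries listed it at 17.2 in Arg- and 10.5 in Leu-, again below the Suff cutoff of 20.6, and like CASTOR2 it was not listed in Met-.

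**Figure D3:**
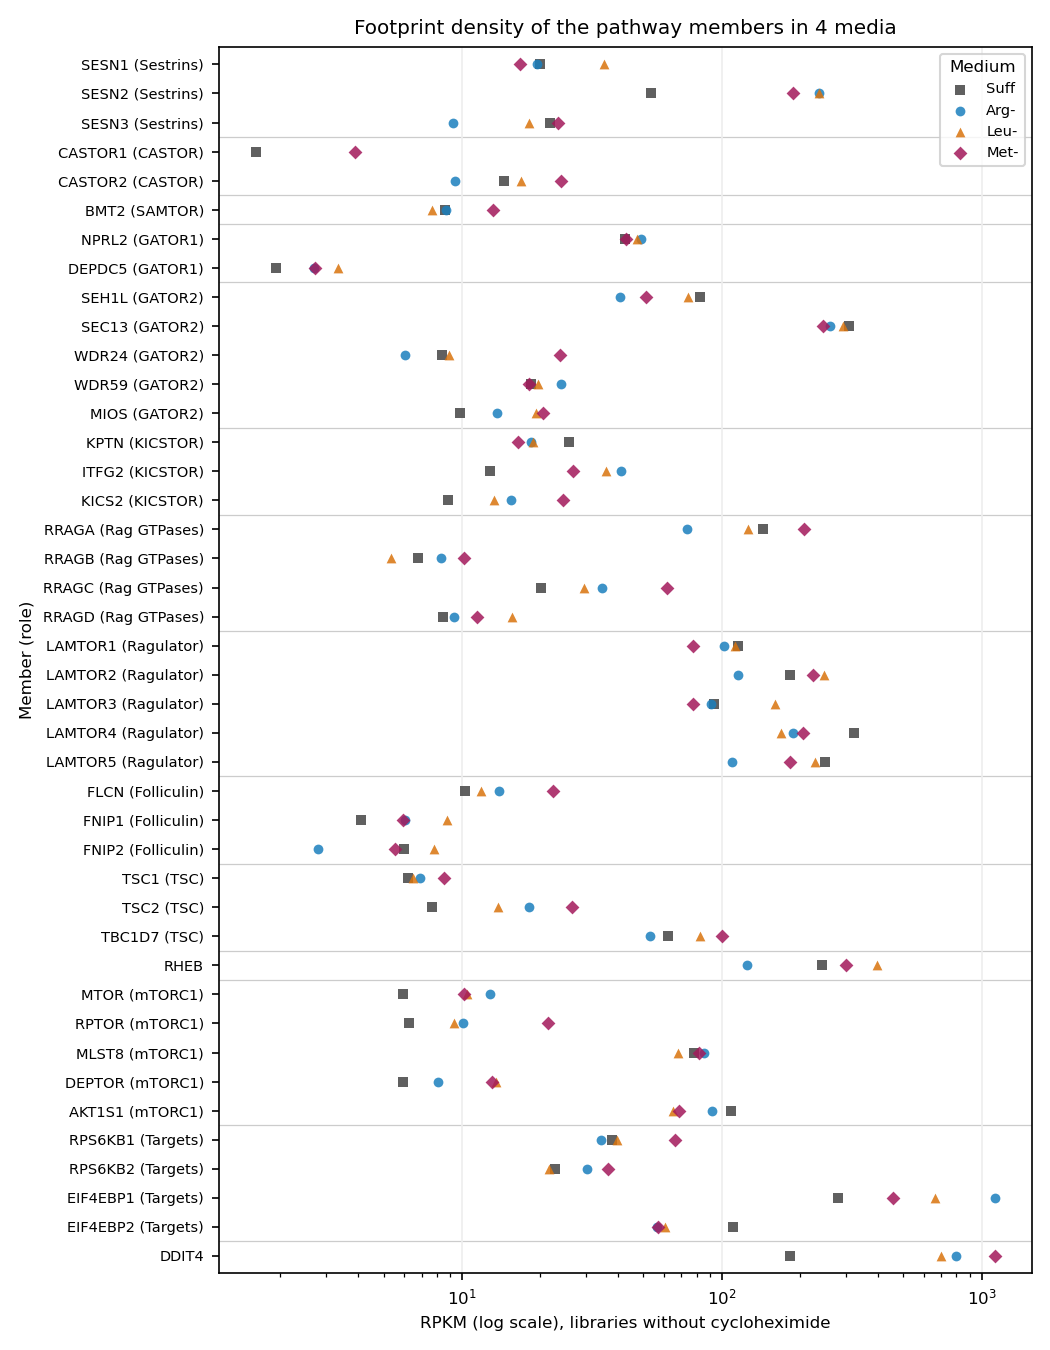
RPKM (horizontal log axis) of the 42 listed members, grouped by role on the vertical axis, in the 4 libraries without cycloheximide. Each symbol is 1 library. In Suff the subunits of GATOR2 span 36.8-fold and the Rag GTPases 21.3-fold, against 3.45-fold in Ragulator, and the Suff symbols of SESN2, ITFG2, EIF4EBP1 and DDIT4 lie to the left of the other 3.

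The GATOR1 subunits NPRL2 and DEPDC5, which with NPRL3 form the GTPase-activating complex for RRAGA and RRAGB, stayed within 2-fold. NPRL2 was at 42.4, 48.9, 47.3 and 42.99 RPKM without CHX, and all of its 3 counting intervals held 0. DEPDC5 was at 1.92, 2.71, 3.33 and 2.71 RPKM, values that did not resolve to whole reads, with log2 ratios of 0.35, 0.57 and 0.35. Its coding sequence shares 43.3% of its windows with another annotated gene. With CHX NPRL2 was listed at 116 RPKM in Arg- and 47.6 in Leu-, on a transcript with a coding sequence of 261 bases in place of 1143, and DEPDC5 at 2.78 in Leu-.

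GATOR2, which opposes GATOR1, divided by subunit. SEH1L and SEC13, which are also nuclear pore components, were the most densely occupied in Suff without CHX, at 82.3 and 310 RPKM, and WDR24 the least at 8.41. SEH1L was below its Suff level in each deficient medium, with 40.7 in Arg-, 74.4 in Leu- and 50.9 in Met-. Its log2 ratios were -0.998 (-1.35 to -0.65, just inside 2-fold), -0.14 (-0.43 to 0.14) and -0.68 (-1.04 to -0.34). With CHX SEH1L was at 193, 71.5 and 145 RPKM in Suff, Arg- and Leu- (log2 ratios -1.42 and -0.41), and in Met- it was at least 1.75-fold lower. SEC13 gave opposite signs in the 2 series, at 260, 292 and 245 RPKM in the deficient media without CHX (-0.25, -0.08 and -0.34) but 183, 329, 356 and 249 RPKM in Suff, Arg-, Leu- and Met- with CHX (0.84, 0.95 and 0.44), where centring turned the Met- value to -0.45 and the 2 series used different transcripts. WDR24, a beta-propeller subunit, was at 6.07, 8.95 and 23.9 RPKM in Arg-, Leu- and Met-. Its Met- log2 ratio was 1.40 (0.96 to 1.86), and Met- also exceeded Arg- (1.82, 1.21 to 2.48) and Leu- (1.32, 0.78 to 1.90). After centring the WDR24 ratios were -0.49 in Arg-, -0.13 in Leu- and 1.02 in Met-. The CHX series listed WDR24 in Met- at 57.2 RPKM, on 73 reads, and not in Suff, where the cutoff was 10.5. Set against that cutoff the Met- level was at least 5.43-fold higher. The shallow Met- library could list WDR24 only well above the Suff cutoff. A large bound was thus fixed by depth and adds nothing to the Met- ratio without CHX. Arg- (5.73) and Leu- (8.33) were under the Suff cutoff. WDR59 was at 18.5, 24.0, 19.6 and 18.1 RPKM and MIOS at 9.82, 13.7, 19.3 and 20.4 without CHX. MIOS was just inside 2-fold in Leu- (0.91, 0.47 to 1.36) and Met- (0.99, 0.53 to 1.45), and with CHX at least 1.86-fold higher in Arg- (17.7 RPKM) and 1.74-fold in Leu- (16.6).

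KICSTOR, which tethers GATOR1 to the lysosome, also had members on both sides. ITFG2 was at 12.8, 41.1, 35.8 and 26.8 RPKM in Suff, Arg-, Leu- and Met- without CHX, and Suff was the lowest of the 4. The log2 ratios were 1.61 (1.12 to 2.12), 1.41 (0.90 to 1.94) and 1.01 (0.44 to 1.59), of which the last came to 0.63 after centring. ITFG2 was at least 2.45-fold higher in Arg- (45.7 RPKM) and 1.38-fold in Leu- (25.7) with CHX. KICS2 was at 8.83, 15.4, 13.3 and 24.6 RPKM without CHX and was called in Met- (1.38, 0.76 to 2.01; 0.99 after centring). KPTN was at 25.8, 18.5, 18.9 and 16.4 RPKM, below Suff in all 3, but its intervals held 0 in Arg- and Leu- (-0.62, -1.23 to -0.04, in Met-). With CHX KICS2 and KPTN were listed only in Arg- and Leu-, at 16.5 to 18.5 RPKM, under the Suff cutoffs.

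The Rag GTPases, which work as a dimer of RRAGA or RRAGB with RRAGC or RRAGD, differed in level by 21.3-fold in Suff without CHX. RRAGA, the highest, was at 145, 73.8, 126 and 207 RPKM in Suff, Arg-, Leu- and Met-, so that Arg- was low and Met- high. Its log2 ratios were -0.96 (-1.27 to -0.66), -0.20 (-0.45 to 0.06) and 0.51 (0.29 to 0.74). After centring they were -1.04, -0.40 and 0.13. RRAGA with CHX was at 87.4, 88.4, 76.0 and 196 RPKM, and Met- was called (1.16, 0.80 to 1.51), which came to 0.27 after centring. RRAGC was at 20.2, 34.7, 29.5 and 61.4 RPKM without CHX, and Met- was the highest. The Met- log2 ratio was 1.56 (1.12 to 2.01), with Met- over Leu- at 1.03 (0.54 to 1.54). After centring the RRAGC ratios were 1.17 in Met- and 0.32 in Leu-. RRAGC with CHX was at 38.2, 26.2 and 38.0 RPKM in Suff, Arg- and Leu- and not listed in Met-, where the cutoff was 99.3. Of its coding windows 79.8% occur in another annotated gene. RRAGB was at 6.79, 8.28, 5.34 and 10.2 RPKM and RRAGD at 8.47, 9.29, 15.5 and 11.5 without CHX. With CHX RRAGB was not listed and RRAGD was listed in Leu- alone, at 10.8.

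Ragulator, the LAMTOR1 to LAMTOR5 scaffold that holds the Rag GTPases on the lysosome, was even in level, its 5 subunits within 3.45-fold of each other in Suff without CHX. LAMTOR5, at chr1:110401249-110407942 on the minus strand, was at 250, 109, 228 and 184 RPKM in Suff, Arg-, Leu- and Met- without CHX, and at 707, 166 and 364 with CHX in the first 3 of these. Arg- was the lowest of the listed libraries in both series. Its log2 ratios in Arg- were -1.18 (-1.52 to -0.86) without and -2.09 (-2.32 to -1.86) with CHX, on different transcripts (coding sequences of 522 and 270 bases), and it was the only member at least 2-fold lower in both series before centring. After centring SEH1L (-1.07 and -1.20), RHEB (-1.03 and -1.40) and EIF4EBP2 were so too in Arg-. Its Leu- ratios were -0.13 (-0.39 to 0.13) and -0.96 (-1.13 to -0.78), its Met- ratio was -0.44 (-0.74 to -0.15) without CHX, and in Met- with CHX it was at least 1.61-fold lower. LAMTOR4 was at 322, 187, 169 and 206 RPKM without CHX, below Suff in all 3 (-0.78, -0.92 and -0.64, no interval holding 0). The CHX libraries had LAMTOR4 at 437, 334, 307 and 529 RPKM, so the Met- value there was above Suff (0.27, -0.03 to 0.57), or below it after centring (-0.62). LAMTOR1 was at 116, 102, 113 and 77.4 RPKM without CHX and 127, 47.0 and 65.7 in Suff, Arg- and Leu- with CHX, where Arg- was called (-1.41, -1.77 to -1.06). LAMTOR2 was at 183, 115, 248 and 224 RPKM without CHX and 457, 246 and 400 with CHX. LAMTOR3 was at 93.4, 91.1, 160 and 77.8 RPKM without CHX and 135, 128 and 305 with CHX. For LAMTOR3 Leu- was thus the highest of the listed libraries in both series (0.77, 0.36 to 1.19, and 1.16, 0.89 to 1.44).

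Folliculin (FLCN) and its partners FNIP1 and FNIP2, which activate RRAGC and RRAGD by GTP hydrolysis, were low in every library. FLCN was at 10.3, 13.9, 11.9 and 22.5 RPKM without CHX and was called in Met- (1.06, 0.52 to 1.62; 0.68 after centring). With CHX it was at least 1.45-fold higher in Arg- (20.9) and 1.29-fold in Leu- (18.5). Of the coding windows of FLCN 35.5% occur in another annotated gene. FNIP1 was at 4.09, 6.03, 8.78 and 5.92 RPKM, highest in Leu- (0.94, 0.39 to 1.51), and was not listed with CHX. FNIP2 was at 5.999, 2.78, 7.79 and 5.51 RPKM without CHX. FNIP2 was lowest in Arg- (-0.89, -1.50 to -0.24), and with CHX it was at 8.18 in Suff, 6.19 in Leu- and at least 2.14-fold lower in Arg-.

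Within TSC, the GTPase-activating complex that inactivates RHEB, the catalytic subunit TSC2 stood apart from its partners. TSC2 was at 7.69, 18.2, 13.8 and 26.5 RPKM in Suff, Arg-, Leu- and Met- without CHX, every deficient medium above Suff. Its log2 ratios were 1.14 (0.82 to 1.47), 0.77 (0.42 to 1.12) and 1.66 (1.34 to 1.98), and with CHX it was at least 1.92-fold higher in Arg- (8.84) and 1.27-fold in Leu- (5.88). TSC1 was at 6.20, 6.93, 6.499 and 8.57 RPKM, with no interval clear of 0. TBC1D7 was at 62.1, 52.8, 82.6 and 100 RPKM without CHX and 60.4, 49.3 and 76.6 with CHX, lowest in Arg- among the listed libraries of both series. With CHX TSC1 was listed at 7.83 in Arg- and 5.88 in Leu-.

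RHEB, the GTPase that switches mTORC1 on, was at 244, 125, 397 and 302 RPKM without CHX and at 260, 84.6 and 128 RPKM in Suff, Arg- and Leu- with CHX. Arg- was below Suff in both series, with log2 ratios of -0.96 (-1.27 to -0.65) and -1.61 (-1.85 to -1.37). Leu- lay above Suff without CHX (0.70, 0.49 to 0.91) and below it with CHX (-1.02, -1.22 to -0.82). In Met- it was slightly above Suff without CHX (0.31, 0.06 to 0.54, and -0.08 after centring). With CHX it was not listed in Met-, at least 1.21-fold lower before counting error, which does not separate Met- from Suff. Its transcript was the same in both series, and 77.1% of its coding windows also occur in the pseudogene RHEBP1.

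Within mTORC1 itself, MTOR, RPTOR and DEPTOR were above Suff in each deficient medium without CHX, whereas AKT1S1 was below it in each. MTOR, the kinase, was at 5.91, 12.8, 10.5 and 10.2 RPKM in Suff, Arg-, Leu- and Met-. Its log2 ratios were 0.9999 (0.69 to 1.32, just inside 2-fold), 0.73 (0.40 to 1.06) and 0.70 (0.36 to 1.05). With CHX it was at 3.93, 4.46 and 3.54 RPKM in Suff, Arg- and Leu-, and the log2 ratios of 0.15 (-0.17 to 0.49) and -0.12 (-0.42 to 0.21) were each within counting error of 0. RPTOR, which presents substrates, was at 6.28, 10.1, 9.33 and 21.5 RPKM without CHX and was called in Met- (1.63, 1.22 to 2.04), where it also exceeded Leu- (1.12, 0.67 to 1.59) and Arg- (1.02, 0.59 to 1.47). After centring the RPTOR ratios were 0.53 in Arg-, 0.30 in Leu- and 1.24 in Met-. With CHX RPTOR was at 7.28 in Arg- and 3.14 in Leu- against a Suff cutoff of 6.24. DEPTOR, an inhibitory subunit, was at 5.96, 8.08, 13.6 and 13.1 RPKM without CHX and was called in Leu- (1.07, 0.27 to 1.90) and Met- (1.02, 0.18 to 1.89), though in neither after centring (0.86 and 0.63), and with CHX was listed in Leu- alone at 12.3. MLST8 was at 78.0, 85.2, 67.9 and 81.9 RPKM without CHX and 183, 97.8 and 99.5 with CHX. AKT1S1 (PRAS40), the other inhibitory subunit, was at 108, 91.9, 65.1 and 68.4 RPKM without CHX and 238, 70.2, 92.1 and 227 with CHX. With CHX AKT1S1 was called lower in Arg- (-1.74, -1.96 to -1.53) and Leu- (-1.36, -1.54 to -1.17), beside -0.24 (-0.55 to 0.07) and -0.73 (-1.10 to -0.37) without it.

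The 2 4E-BPs, which block eIF4E unless mTORC1 phosphorylates them, lay on different sides of Suff without CHX. EIF4EBP1 was at 280 RPKM in Suff, 1127 in Arg-, 664 in Leu- and 458 in Met- without CHX. With CHX the values were 780, 630, 947 and 472. Without CHX each deficient medium was above Suff, in the order Arg-, Leu- and Met-, and the deficient media differed from each other beyond counting error. The log2 ratios were 2.004 (1.81 to 2.20), 1.24 (1.02 to 1.47) and 0.71 (0.45 to 0.96). With CHX they were -0.31 (-0.45 to -0.17), 0.28 (0.16 to 0.40) and -0.72 (-1.05 to -0.40), a pattern unlike that without CHX. Centring brought these CHX values to -0.09, 0.27 and -1.61. EIF4EBP2, at chr10:70404145-70428618 on the plus strand, was at 111, 56.4, 60.7 and 57.1 RPKM without CHX. With CHX it was at 187 in Suff, 61.0 in Arg- and 51.8 in Leu- and was not listed in Met- (cutoff 330). Every deficient library that listed EIF4EBP2 was below the Suff library of its series. The log2 ratios were -0.96 (-1.54 to -0.40), -0.85 (-1.44 to -0.30) and -0.94 (-1.58 to -0.34) without CHX, and -1.60 (-1.95 to -1.25) and -1.83 (-2.17 to -1.49) with CHX. Centred on the median of all genes, all 5 were past 2-fold, at -1.03, -1.06, -1.33, -1.38 and -1.84 in the same order. Only 27 to 33 reads stand behind each deficient value without CHX. The S6 kinases were within 2-fold, RPS6KB1 at 37.7, 34.2, 39.4 and 66.2 RPKM and RPS6KB2 at 22.9, 30.4, 21.7 and 36.6, with Met- the highest for both (0.79, 0.47 to 1.12, and 0.65, 0.21 to 1.10). With CHX RPS6KB1 was listed at 18.6 in Arg- and 18.3 in Leu- and RPS6KB2 at 36.7 in Leu-. Of the coding windows of RPS6KB1 48.5% also occur in other annotated genes.

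**Figure D4:**
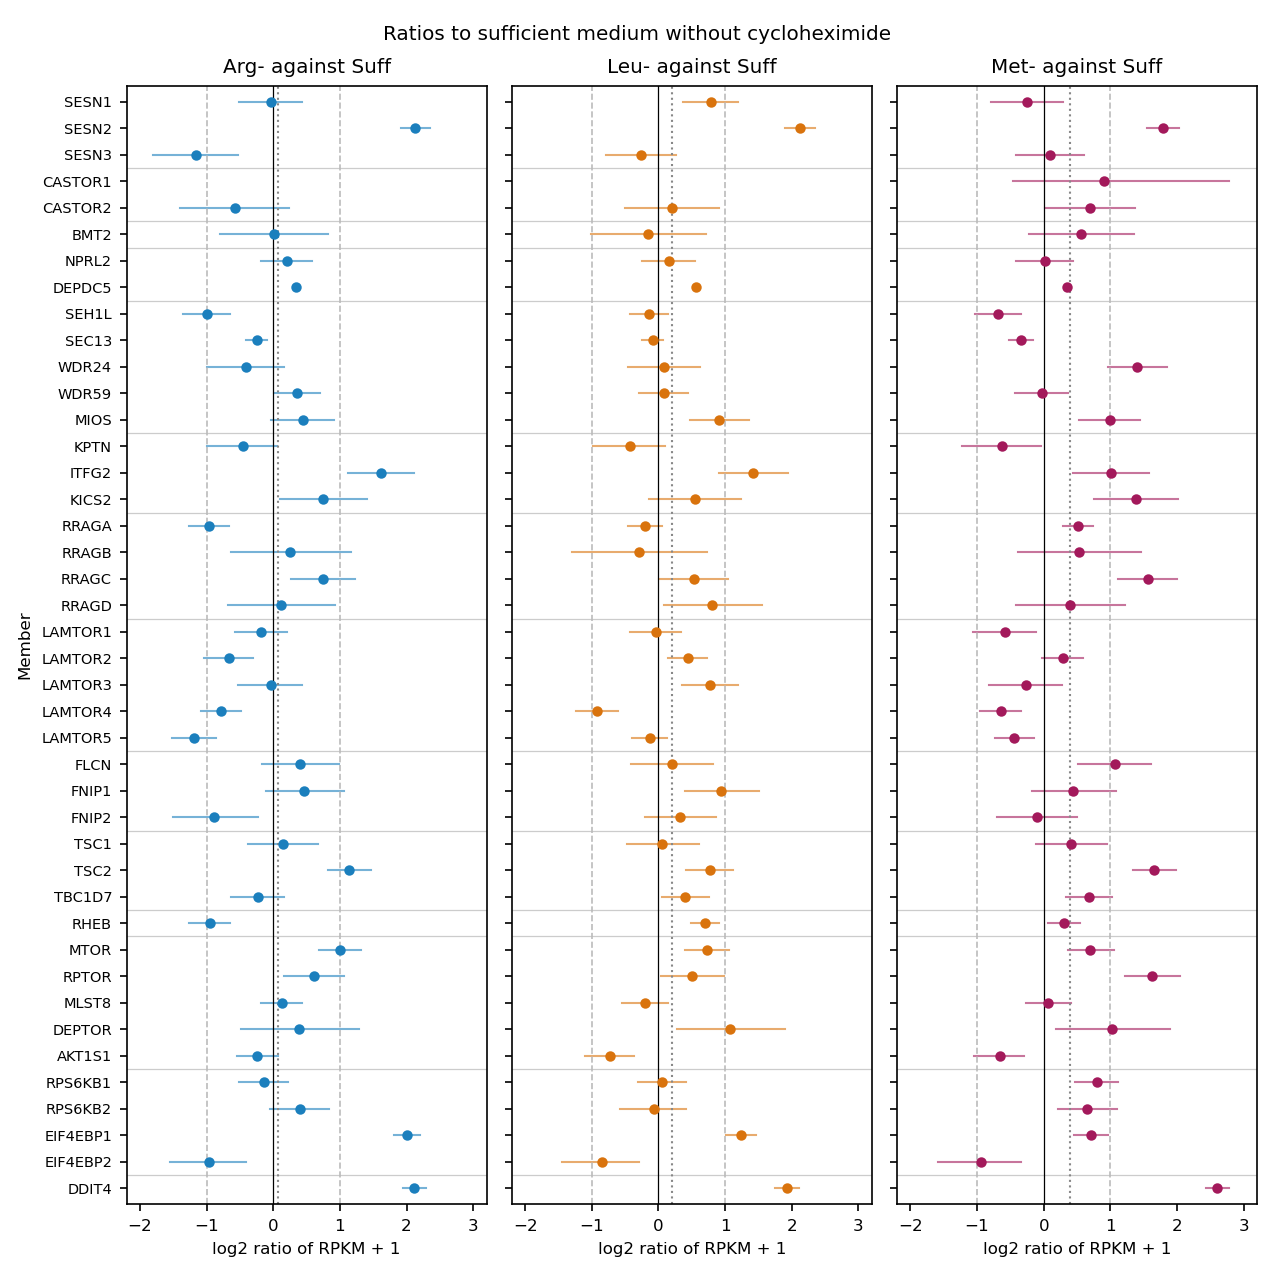
Log2 ratio of RPKM + 1 to sufficient medium (horizontal axis) for the 42 listed members (vertical axis) in Arg-, Leu- and Met- without cycloheximide. Points are ratios of 1 library to 1 library, bars 95% counting intervals where reads were recovered, dashed lines 2-fold, and the dotted line the median of all genes. SESN2, ITFG2 and DDIT4 lie past 2-fold in all 3 panels, and EIF4EBP2 lies between -0.96 and -0.85.

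Across the 3 deficiencies without CHX, 41 members had all 3 ratios. Of these 17 were above 0 in each, 8 below 0 in each, and 28 within 2-fold in each (beside 41.02%, 17.4% and 64.9% of 10205 genes). The highest of a member's 3 ratios was in Met- for 18 members, in Leu- for 15 and in Arg- for 8, beside 52.8%, 29.3% and 17.9% of all genes. The 2 series share no library. Of the members with ratios in both, 14 of 19 had the same sign in Arg-, 14 of 20 in Leu- and 4 of 7 in Met-, and 3, 2 and 2 were past 2-fold in the same direction in both (SESN2 and DDIT4 in all 3, and LAMTOR5 in Arg-). Over all genes with both ratios 70.9%, 70.5% and 70.5% had the same sign and 6.17%, 3.26% and 13.1% were past 2-fold in the same direction, so a shared sign was as usual for all genes as for the members in Arg- and Leu-.

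Both series were also fitted together, a choice made after the values were seen, with limma on log2 of RPKM + 1 with medium and series as terms. The fit takes the way a gene's ratios differ between the series as its error, with 1 to 3 residual degrees of freedom per member. limma then moves that error towards the error usual over all genes. The SE and p-values of a member thus rest in part on other genes. After adjustment over all genes tested, SESN2 and DDIT4 passed an adjusted p of 0.05 in Met-, among 191 of 1811 genes. Values were log2 2.85 (SE 0.50, adjusted p = 0.0176) for SESN2 and 3.74 (SE 0.53, adjusted p = 0.0123) for DDIT4. The Met- fit held only genes that reached the read cutoff in the shallow Met- library with CHX. For SESN1 that cutoff was 71.9 RPKM, against 15.1 in Suff, and 13 members listed in Suff with CHX were not listed there. The tested genes were thus partly chosen for being high in Met-, which bears on the adjustment and on the genes passing, centred or not. No member passed in Arg- (3 of 5056 genes did) or in Leu- (0 of 5213), where 1501 and 826 genes, 7 and 5 of them members, had an unadjusted p under 0.05. In Arg- the adjusted p was 0.0717 for SESN2, for DDIT4 and for LAMTOR5, and in Leu- it was 0.240 for SESN2 and DDIT4. With each library first centred on its median, 5 members passed in Arg-, among 511 genes. They were SESN2 (adjusted p = 0.00936), DDIT4 (0.0156), LAMTOR5 (0.0285), SEH1L (0.0422) and EIF4EBP2 (0.0492), the last 3 below Suff. SESN2 alone passed in Leu- (adjusted p = 0.0353, beside 0.0539 for DDIT4), among 6 genes, and SESN2 and DDIT4 in Met- (0.00862 and 0.00359), among 284.

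**Figure D5:**
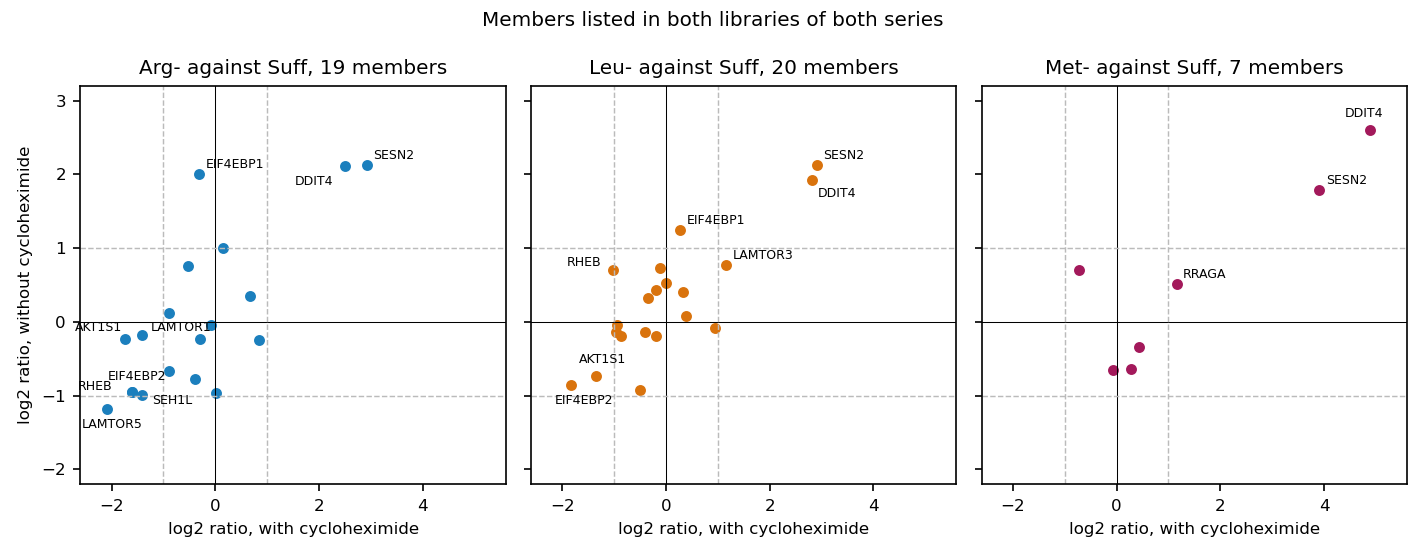
Log2 ratio to sufficient medium with cycloheximide (horizontal axis) and without it (vertical axis) for members listed in all 4 libraries concerned, 1 panel per deficiency. Each point is 1 member, dashed lines mark 2-fold, and members past 2-fold in either series are named. SESN2 and DDIT4 are at the upper right in all 3 panels, EIF4EBP1 is high on the vertical axis only in Arg- and Leu-, and RHEB in Leu- has opposite signs.

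The proteins differ in how much of the withheld amino acids they contain. Leucine made up 16.8% of LAMTOR4 and 16.4% of DDIT4, 12.5% of SESN2 and 5.08% of EIF4EBP1, beside a median of 9.76% over 11063 proteins. The share of the withheld amino acid had rho of 0.07 (arginine), 0.16 (leucine) and 0.19 (methionine) with the matching ratio over 41, 41 and 42 members without CHX, and of 0.26, 0.41 and -0.29 over 19, 20 and 7 members with CHX. Over all genes the same values were 0.0005, -0.02 and -0.08 without CHX and -0.14, -0.09 and -0.14 with CHX. They are given as a description, and the part of composition in the ratios was not tested.

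Of 34 other genes of the pathway, 29 had a ratio in Arg- and in Leu- and 30 in Met- without CHX. Those at least 2-fold higher numbered 3, 2 and 8, beside 9.22%, 7.98% and 21.4% of all genes, and those lower 3, 0 and 0, beside 4.78%, 1.76% and 4.36%. With CHX 13, 14 and 3 had a ratio, of which 3, 3 and 1 were higher (all genes 16.2%, 11.6% and 46.7%) and 3, 1 and 1 lower (19.2%, 7.05% and 9.78%). LARS1, the leucyl-tRNA synthetase that is also a leucine sensor for the Rag GTPases, was the one gene of this list called higher in all 3 deficiencies without CHX. It was at 28.7 RPKM in Suff, 97.2 in Arg-, 75.9 in Leu- and 94.4 in Met-, and with CHX at 12.95, 67.8 and 31.3 in the first 3. SLC38A9, the lysosomal arginine sensor, was at 6.61 in Suff and was called in Arg- (21.0) and Met- (25.04). RICTOR, the scaffold of mTORC2, was called in the same media from a low level (1.65, 4.66 and 4.58). The 3 genes lower in Arg- without CHX were MAPKAP1 (log2 ratio -1.16), ULK1 (-1.16) and AKT1 (-1.11). MAPKAP1 (-1.38) and AKT1 (-1.44) were also called lower in Arg- with CHX. PDPK1 (2.06) and TTI1 (1.83) had the highest Met- ratios without CHX. No counting intervals were computed for this list.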

How the data were processed

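Footprint libraries of HEK293T cells in 4 media, with and without CHX, were analysed (1 library per condition). Per the study's methods and the labels, the authors trimmed adaptors, kept reads by length and quality, used Bowtie to align them without mismatch to transcripts of GRCh38, and counted reads with a unique position. Each deposited file gives RPKM by Ensembl transcript. Removal of duplicate reads is stated for the libraries without CHX by the names of the records alone, and the annotation release is not given in the sources used here. Uniquely mapped reads leave out sequence shared between genes, so the share of 30-base coding windows found in other genes was computed.

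Transcripts were matched to GENCODE release 44 (96.7% to 97.1% per library), and the highest transcript per gene was used, which was the same in all libraries of a series that listed the member. RPKM multiplied by coding length gave whole reads, within a tolerance of 0.01 of a read, for 97.2% to 97.4% of matched transcripts and for 262 of 267 member values. Level intervals are exact Poisson and ratio intervals exact Clopper-Pearson, at 95%. Reads come from PCR-amplified libraries without molecular identifiers. Duplicates were removed without CHX, per the record names, and no removal is stated with CHX. The intervals cover neither the copies kept nor the reads removed. The pseudocount was 1. The median listed member had 106.5 to 220.5 reads with CHX and 69 to 110 without. Where a member was listed in 1 library of a pair, the bound used the lowest listed read count (64 or 5). Bounds were given only where above 1, and they carry no counting error.

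The members and lists were chosen with earlier results of these data known. All 43 members are named, and the sensors, DDIT4, the 4E-BPs and members past 2-fold alike in both series are given in every library. The 6 alternatives were a pseudocount of 0.1, unlisted genes as 0, a mean RPKM of at least 10, summed transcripts, the transcript highest in Suff, and centring on the median of all genes. Added after seeing the data was a limma fit of both series with the series as a block, with the Benjamini-Hochberg adjustment over the genes listed in Suff and the deficient library of both series. It takes the 2 series as replicates, though they differ in CHX, cutoff and the transcript of 13 members. The scripts were tested on simulated data. Software was R 4.3.3 with limma 3.58.1, Python 3.11.15 with scipy 1.17.1, pandas 2.3.3, numpy 2.4.6 and, for plots, matplotlib 3.10.9.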

Additional observations from a re-analysis of the deposited data

Results flagged for a closer look

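EIF4EBP1 and RHEB had opposite signs in the series with and without CHX, outside their counting intervals in both, with at least 1 of the ratios past 2-fold. EIF4EBP1 in Arg- had a log2 ratio of -0.31 with CHX and 2.004 without it. RHEB in Leu- had a log2 ratio of -1.02 with CHX and 0.70 without it. Each sign rests on 1 library against 1 library, and the difference between the series was not tested. Both members were represented by the same transcript in the 2 series, and centring on the median of all genes gave -0.09 and 1.93 for EIF4EBP1 and -1.03 and 0.50 for RHEB, of which -0.09 is close to 0. Of the coding windows of RHEB 77.1% also occur in RHEBP1, and of EIF4EBP1 0%.
Opposite signs outside the counting intervals, with neither ratio past 2-fold, were seen for 5 further ratios, with CHX and without it in this order. They were EIF4EBP1 in Met- (-0.72 and 0.71), RRAGC in Arg- (-0.53 and 0.75), SEC13 in Arg- (0.84 and -0.25) and Met- (0.44 and -0.34), and LAMTOR2 in Leu- (-0.19 and 0.44). Centring gave, in the same order, -1.61 and 0.32, -0.31 and 0.68, 1.06 and -0.32, -0.45 and -0.73, and -0.21 and 0.23. The signs of SEC13 in Met- then agreed, and EIF4EBP1 in Met- with CHX was past 2-fold lower. The centred values for Met- with CHX depend on which genes that shallow library listed. SEC13 and LAMTOR2 were represented by different transcripts in the 2 series.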

How the results depend on the processing

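No paired analysis was possible within a series because each condition had 1 library. The fit over both series with the series as a block is given with its values above. Centring each library moved the fit's counts of genes from 3 to 511 in Arg-, 0 to 6 in Leu- and 191 to 284 in Met-. The Met- counts cover only genes listed in the shallow Met- library with CHX. The counts of members called and the members' medians gave 108 values under the 6 alternatives, of which 90 kept to the stated value (counts within 1.5 times, medians within their interval) and 18 moved. The share of all genes under the same setting is given in brackets. With unlisted genes counted as 0, Arg- with CHX had 17 of 35 members higher (43.9%) and a median of 0.84. Leu- with CHX had 22 of 39 higher (45.8%) and a median of 2.05. Met- with CHX had 13 of 21 lower (67.2%) and a median of -3.79, and Leu- without CHX had 1 of 42 lower (6.19%). A mean RPKM of at least 10 also counts unlisted genes as 0. Arg- with CHX then had 6 of 22 higher (29.7%) and Leu- with CHX 7 of 22 higher (26.3%). Met- with CHX had 10 of 18 lower (61.9%) with a median of -5.62. Counting unlisted genes as 0 reads the cutoff of 64 reads and the depth as differences, which by construction moves these counts. After centring, Met- with CHX had 1 of 7 lower (22.9%), Arg- without CHX 6 of 41 lower (6.04%) and Leu- without CHX 2 of 41 lower (3.56%). Met- without CHX had 6 of 42 higher (9.53%) and 5 lower (10.4%) with a median of 0.0906. A pseudocount of 0.1 gave 4 of 41 lower in Arg- without CHX (5.58%). Of 987 ratios of single members under these 6 alternatives 944 stayed and 43 moved, and no called ratio reversed. Counting unlisted genes as 0 and the RPKM minimum could not change a ratio between listed values. Nor could the transcript highest in Suff, because no member's highest transcript changed within a series. All ratios under these settings stayed by construction. Centring moved 34 ratios and kept 136, summed transcripts moved 6, and a pseudocount of 0.1 moved 3. Depth limits Met- with CHX most, where 8 members were listed, and CASTOR1, with 5 reads.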
